A study of Mus musculus with 3 samples.

Results

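The genes described here encode the enzymes that write DNA methylation in the mouse, a set of their partners and the enzymes that oxidise the mark. They are the DNA methyltransferases Dnmt1, Dnmt3a and Dnmt3b, the cofactor Dnmt3l, the adaptor Uhrf1, the dioxygenases Tet1 and Tet3, the CpG-binding protein family member Mbd3 and the co-repressor Trim28. Members were found by the gene symbol of the platform annotation: 8 of the 9 genes had a probe and together they held 13 of the 25697 probes of the array. Of the 8 genes, 5 had 2 probes (Dnmt3a, Dnmt3b, Dnmt3l, Uhrf1 and Tet3) and 3 had 1 probe (Dnmt1, Mbd3 and Trim28). Tet1 was matched to no probe, by symbol or by gene number, and was not analysed here.

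The samples were mouse 2-cell embryos of the F1B6C3H strain, collected 26 hr after in vitro insemination and hybridised to Illumina mouse-8 BeadChips, on which beads carry probes for known transcripts. A single array carried 2-cell ctrl embryos, which came from metaphase II (MII) oocytes able to support development, and 2 arrays, called NSN-a and NSN-b here, carried 2-cell NSN embryos, from oocytes whose nucleolus has no surrounding heterochromatin ring and which do not support it. The study's methods state that NSN oocytes were isolated from the ovary of females aged 4 to 6 weeks and brought to MII in culture, and that males were 5 months old, and its introduction describes the control oocytes as ovulated. Class of oocyte and culture cannot be told apart in these data, and how many embryos went on each array is not given in the sources used here.

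Methylation of cytosine at CpG sites is copied after replication by DNMT1, which UHRF1 brings to hemimethylated DNA, whereas DNMT3A and DNMT3B set new marks with the help of DNMT3L, which has no catalytic activity of its own. TET3 oxidises the mark in the zygote. TRIM28 is brought to DNA by zinc finger proteins and helps to keep imprinted regions methylated while the rest of the genome loses methylation in the early embryo, and MBD3 is a subunit of the NuRD deacetylase complex. Transcripts of several of these genes are stored in the oocyte, so the RNA of a 2-cell embryo can be maternal or newly made. The arrays do not distinguish these sources and did not measure DNA methylation.

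Signals are background-subtracted intensities on a linear scale, negative where a probe was dimmer than background. A probe was taken as above background where its signal reached a limit of 6.10 on the control array, 8.57 on NSN-a and 8.32 on NSN-b. The control and NSN-a limits were the lowest signals with a known detection p value of 0.01 or less, so they may be too high. The limit of NSN-b was scaled from that of NSN-a by the spread of the dim signals. Mirroring the signals under each median (percentile 99) gave lower limits of 3.29, 4.16 and 3.99, used only as another setting. A call of lower or higher needed a signal over the limit in 1 of the groups (for NSN, on both of its arrays) and a difference of 1.5-fold or more. Signals under a limit were raised to it, so a fold against a dim group is given as at least that many times. Over the whole array 1086 probes were above background in the control, 193 on NSN-a and 202 on NSN-b, and the brightest probe fell from 2113 to 348 on both NSN arrays. Less of a transcript in each embryo and less RNA in the whole sample cannot be told apart here, and the control, a single array, gives no replicate check of its own. Nothing in the sources used here says that the NSN arrays came from separate pools, and their spread may be only technical.

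Of the 13 probes, 5 were above background in the control (4.23% of all probes were, and 4.30% were above it there or on both NSN arrays), and 1 of these was also above background on both NSN arrays. These 5 probes belong to Uhrf1, Dnmt1, Dnmt3l (both probes) and Dnmt3b. Of the 5, 3 were called lower in 2-cell NSN embryos (Dnmt1, 1 probe of Dnmt3l and, on the deposited scale but not under every scaling, Uhrf1) and none was called higher, while over the array 43.7% of the 1105 probes above background in either group were called lower and 7.60% higher. Of the 1105 probes, 1086 were above background in the control, so the filter itself favours lower calls. Lower calls made up 85.2% of all calls on the deposited scale and 69.0% after normexp correction and quantile normalization, with 314 lower and 141 higher. Read against that background, 3 of 5 probes is no result about the members as a group. The median log2 difference of the 5 probes was -0.83, against -0.37 over the 1105 probes, and both medians hold values set by the limits. The other 8 probes were below every limit, with signals from -3.63 to 3.25 in the control, from -2.37 to 1.17 on NSN-a and from -2.41 to 2.91 on NSN-b, and have no fold.

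**Figure D1:**
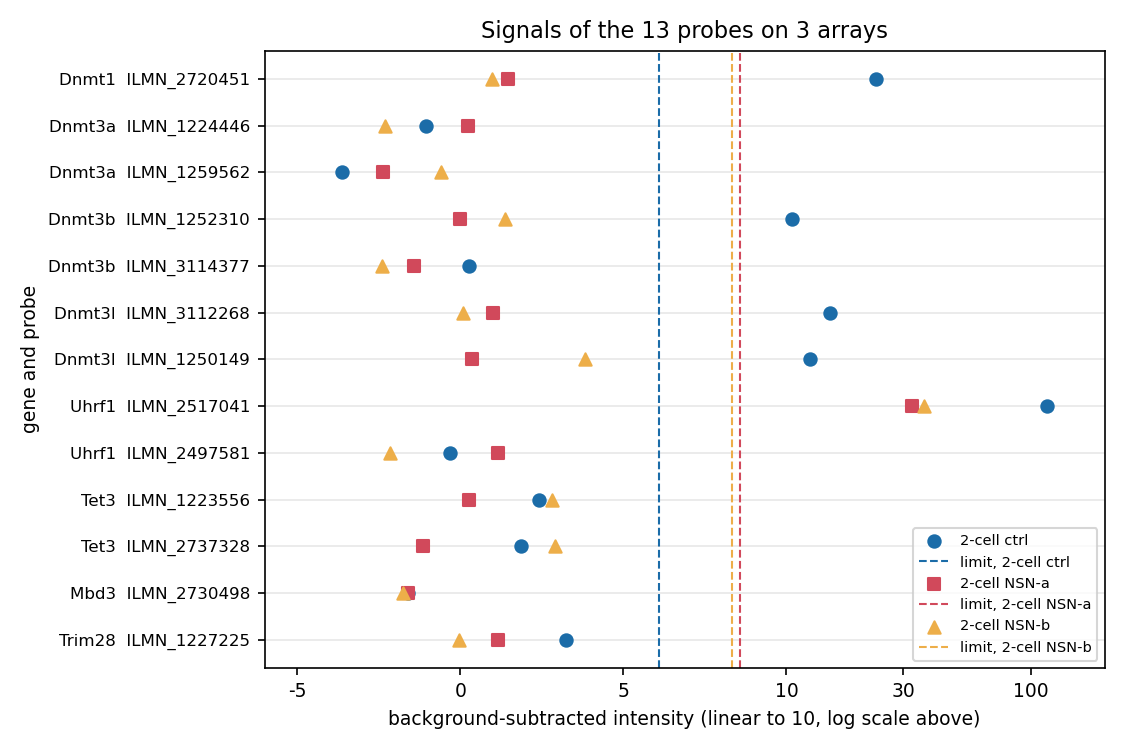
Background-subtracted intensity (x axis, linear to 10 and logarithmic above) of each of the 13 probes (y axis) on the 3 arrays, with dashed lines at the limit of each array. The control signal (circle) lies right of its limit for 5 probes, and both 2-cell NSN signals lie right of theirs for the bright Uhrf1 probe.

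Uhrf1, the adaptor of maintenance methylation, was above background on all 3 arrays at 1 of its 2 probes. This probe (ILMN_2517041) read 115.7 on the control array, 32.5 on NSN-a and 36.4 on NSN-b. The NSN arrays lay within 1.12-fold of each other, with a mean of 34.4 ± 2.80 (SD, n = 2). The direction for Uhrf1 was turned by some other scalings but not by all. On the deposited scale Uhrf1 was 3.36-fold lower, 3.56-fold on NSN-a and 3.18-fold on NSN-b. In limma, fitted to the 136 probes that passed the limit of every array, and taking the control to vary as the NSN arrays do, the log2 difference on that scale was -1.75 (standard error 0.14, adjusted p = 0.000773 with Benjamini-Hochberg adjustment), where 22.8% of these probes passed as lower and 43.4% as higher.

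The direction of the Uhrf1 difference depended on how the arrays were scaled. The log2 difference was -2.25 after rescaling by the median ratio of the 136 probes and -1.39 with log2(signal + 16). It was 0.34 after normexp and quantile (limma, adjusted p = 0.300, which misses the threshold). It was also 0.34 when the NSN arrays were scaled to the 100th brightest probe of the control, a setting chosen after seeing the data. The rank of the probe, which needs no scaling, was 49 of 25697 in the control, 40 on NSN-a and 27 on NSN-b. Uhrf1 thus stayed among the 50 brightest probes on each array. Relative to the median of the 136 probes, which was 0.51 on the deposited scale and 1.05 after normexp and quantile, Uhrf1 lay at -2.26 and -0.71. These 136 probes had to be bright on the NSN arrays to enter. Among the 84 other probes with a control signal within 2-fold of that of Uhrf1, 82 had a larger decrease, or a larger lower bound, and 2 a smaller one on the deposited scale. These were picked on the control signal alone, which favours a decrease, and all 85 probes of that range, Uhrf1 included, were called lower. In the same 84 probes after normexp and quantile, where Uhrf1 itself is at 0.34, the log2 difference of 82 was below that of Uhrf1.

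The second Uhrf1 probe (ILMN_2497581) gave -0.32 in the control, 1.17 on NSN-a and -2.15 on NSN-b, all below background, although both probes are annotated to the same transcript. The Uhrf1 values thus rest on 1 of 2 probes. This was common on the array: of 2795 genes with 2 probes, 187 had 1 probe above background in the control and 22 had both.

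Dnmt1, the maintenance methyltransferase, was measured by 1 probe (ILMN_2720451). Its signal was 23.1 in the control, 1.45 on NSN-a and 0.966 on NSN-b. The control value was 3.79 times the control limit and ranked 288, and both 2-cell NSN values were below background, so that Dnmt1 was at least 2.74-fold lower. Dnmt1 was also called lower in each of the other settings run for it, among them normexp and quantile (log2 difference of -0.67) and limits at a detection p value of 0.05 (-2.83). Lower calls were common at such signals. Of the 344 probes with a control signal from 10.5 to 23.1, 208 (60.5%) were called lower on the deposited scale.

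Reference promoters of these genes are shown to set their CpG content side by side, as CpG sites are the substrate of the enzymes that the genes encode. Each sequence is the RefSeq window (GRCm38.p6) from 250 bases before to 50 after an annotated start, 5′ to 3′ on the strand of the gene, with CpG sites in capitals. Dnmt1 has 3 such windows, of which the one furthest upstream holds 2 CpG sites, the next 12 and the last 33, whereas the median over all 32851 windows was 7. The Uhrf1 window printed here, the second of 2, holds 33.
Dnmt1, furthest upstream, chr9:20959839-20960138, minus strand: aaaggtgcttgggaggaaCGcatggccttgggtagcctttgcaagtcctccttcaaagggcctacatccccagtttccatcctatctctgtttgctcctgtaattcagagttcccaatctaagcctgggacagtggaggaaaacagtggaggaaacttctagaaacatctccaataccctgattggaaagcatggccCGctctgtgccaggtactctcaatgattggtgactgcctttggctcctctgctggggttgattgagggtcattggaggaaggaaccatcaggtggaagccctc
Dnmt1, furthest downstream, chr9:20952574-20952873, minus strand: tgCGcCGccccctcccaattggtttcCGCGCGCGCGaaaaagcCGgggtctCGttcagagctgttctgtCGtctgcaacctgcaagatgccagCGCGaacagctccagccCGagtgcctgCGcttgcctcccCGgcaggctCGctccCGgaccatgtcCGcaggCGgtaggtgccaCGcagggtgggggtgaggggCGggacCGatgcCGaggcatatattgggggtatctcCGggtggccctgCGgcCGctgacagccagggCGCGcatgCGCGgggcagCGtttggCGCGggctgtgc
Uhrf1, second start, chr17:56304063-56304362, plus strand: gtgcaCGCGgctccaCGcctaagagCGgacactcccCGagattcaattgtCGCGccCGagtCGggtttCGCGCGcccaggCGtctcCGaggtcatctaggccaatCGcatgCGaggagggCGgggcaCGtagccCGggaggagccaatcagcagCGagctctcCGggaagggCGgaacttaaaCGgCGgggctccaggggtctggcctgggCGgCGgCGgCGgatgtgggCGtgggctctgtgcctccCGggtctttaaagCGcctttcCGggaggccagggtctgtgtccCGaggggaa
These sequences show the contrast between the CpG-poor and the CpG-rich start of Dnmt1. The arrays do not tell which start was used.

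Dnmt3l, the cofactor of new methylation, was above background in the control at both probes. ILMN_3112268 gave 15.0 in the control, 0.995 on NSN-a and 0.0854 on NSN-b, a decrease of at least 1.78-fold. ILMN_1250149 gave 12.4, 0.347 and 3.84 in the same order, which is at least 1.47-fold lower and short of the 1.5-fold threshold. The 2 bounds come from the control signals and the NSN limits alone. No NSN signal could have made ILMN_1250149 a lower call. Both probes were over the limit in the control and below it on each NSN array, as were most probes of such control signals (289 of the 344 from 10.5 to 23.1). With the 2 probes averaged, Dnmt3l was at least 1.63-fold lower, a call, whereas neither probe was called after normexp and quantile (log2 differences of -0.52 and -0.33) or at a fold of 2.

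Dnmt3b, a methyltransferase of new marks, was above background in the control at 1 of its 2 probes. ILMN_1252310 gave 10.5 in the control, -0.0139 on NSN-a and 1.36 on NSN-b. The signal was lower on both NSN arrays than in the control, but the 2-cell NSN limits lie so close to the control value that the bound was at least 1.24-fold, and Dnmt3b was not called. It was called lower with limits at a detection p value of 0.05 (at least 3.23-fold), with limits set by mirroring the signals under each median (at least 2.58-fold), with log2(signal + 16) (1.59-fold on that scale) and after rescaling by the median ratio of the 136 probes (at least 1.75-fold). The other probe (ILMN_3114377), annotated to another Dnmt3b transcript, gave 0.254, -1.41 and -2.41 and was below background on every array.

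Dnmt3a, the related methyltransferase that sets imprints in the oocyte, was below background at both probes. ILMN_1224446 gave -1.05 in the control, 0.245 on NSN-a and -2.32 on NSN-b, and ILMN_1259562 gave -3.63, -2.37 and -0.606. No fold can be given for Dnmt3a, and a level under the limits was not detectable on these arrays.

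The windows of the genes for new methylation are shown for the same contrast. Dnmt3b has 1 window with 30 CpG sites. The 3 windows of Dnmt3l hold 6, 4 and 3, and the first of them is printed. The 3 windows of Dnmt3a, not printed, hold 46, 47 and 18.
Dnmt3b, chr2:153649199-153649498, plus strand: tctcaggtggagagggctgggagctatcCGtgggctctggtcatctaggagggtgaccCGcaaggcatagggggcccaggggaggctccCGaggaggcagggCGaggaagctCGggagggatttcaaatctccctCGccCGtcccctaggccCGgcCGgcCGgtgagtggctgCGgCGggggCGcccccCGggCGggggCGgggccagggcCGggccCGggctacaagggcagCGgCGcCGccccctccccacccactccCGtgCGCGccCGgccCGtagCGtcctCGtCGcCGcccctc
Dnmt3l, furthest upstream, chr10:78042037-78042336, plus strand: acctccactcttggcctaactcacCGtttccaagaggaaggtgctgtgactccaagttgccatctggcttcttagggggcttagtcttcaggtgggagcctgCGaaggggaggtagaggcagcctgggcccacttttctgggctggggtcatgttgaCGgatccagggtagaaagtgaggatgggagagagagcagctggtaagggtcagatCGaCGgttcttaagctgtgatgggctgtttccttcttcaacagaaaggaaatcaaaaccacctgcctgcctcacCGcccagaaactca
All 9 members, Tet1 included, had at least 1 window, 16 in all, with 2 to 47 CpG sites.

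**Figure D2:**
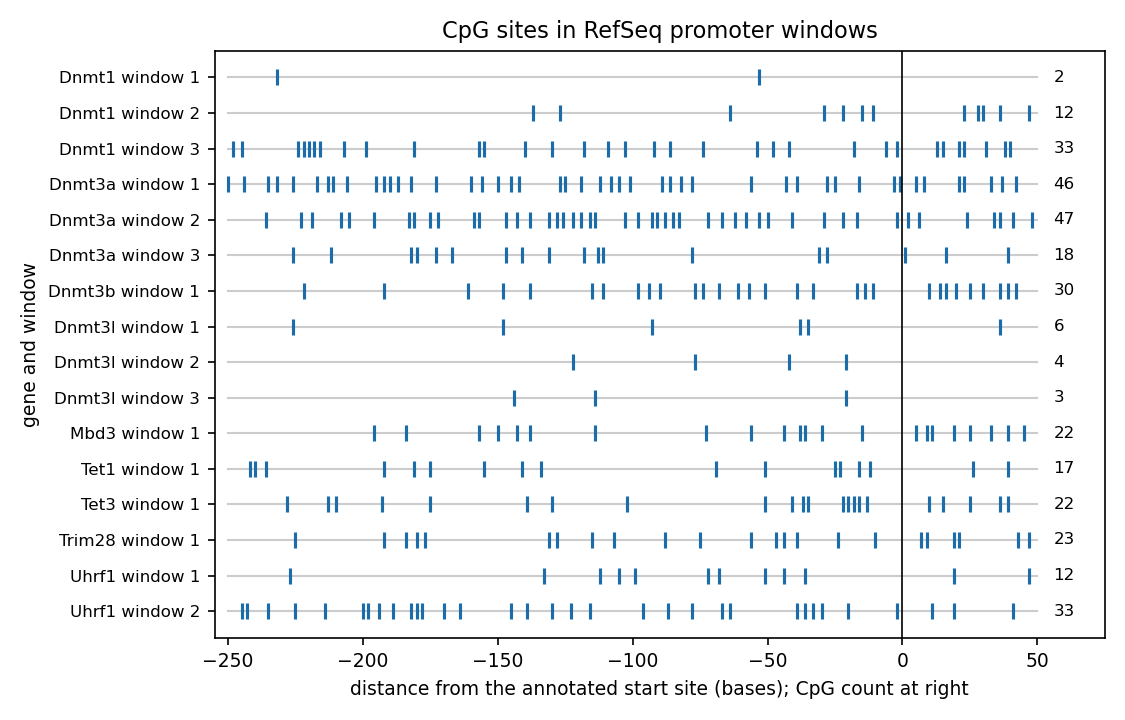
Position of each CpG site (blue tick) in the 16 RefSeq promoter windows of the 9 genes (y axis), as distance in bases from the annotated start site (x axis), with the CpG count of each window at the right. The windows of Dnmt3l hold 3 to 6 CpG sites, and those of Dnmt1 hold 2, 12 and 33.

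Motifs were searched on both strands of the 16 windows, as a description of the sequence and not of binding. The octamer ATGCAAAT, bound by OCT4, was in none of them, against 1.74% of all windows. TTTCGCGC, a form of the E2F motif, was in 2, the windows of Dnmt1 furthest downstream and of Uhrf1 printed above (0.323% of all windows), and TTTGGCGC was in 1, of Dnmt1 (0.514%). TTTCCCGC was in none, against 1.07%. At shares as low as those of the octamer and TTTCCCGC, absence from 16 windows, some of them overlapping, says little. The CCAAT box (CCAAT) was in 6 windows, of Dnmt1, Mbd3, Tet3 and Uhrf1 (37.4% of all windows), and the GC box GGGCGG, which itself contains a CpG, as the E2F forms do, in 13 (35.7%).

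Tet3, the dioxygenase of the zygote, was below background at both probes. ILMN_1223556 gave 2.41 in the control, 0.252 on NSN-a and 2.80 on NSN-b, and ILMN_2737328 gave 1.87, -1.14 and 2.91. The NSN arrays differed from each other at both probes by more than NSN-b differed from the control. Trim28, the co-repressor, gave 3.25, 1.14 and -0.0469 at its 1 probe. It passed the looser control limit of 2.94 at a detection p value of 0.05, but the corresponding NSN limits, 3.30 and 3.20, are so near its control signal that no call was made. Mbd3 gave -1.61, -1.62 and -1.74 at its 1 probe, which are all negative.

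**Figure D3:**
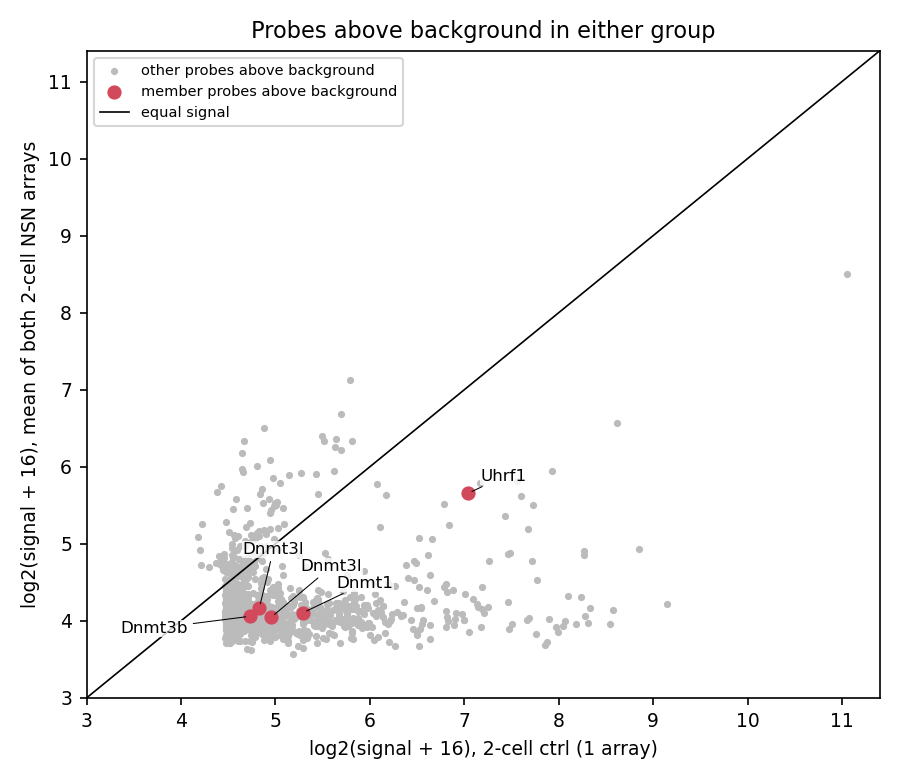
Signal of each probe above background in either group, as log2(signal + 16), in 2-cell ctrl embryos (x axis, 1 array) and as the mean of both NSN arrays (y axis), with the 5 member probes in red and a line at equal signal. Uhrf1 lies apart from the 4 other member probes, which sit at the dim end, and all 5 lie below the line on the deposited scale, where Uhrf1 would cross it after normexp and quantile.

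Probes with the pattern most like a member were found by the Euclidean distance of log2(signal + 16) over the 3 arrays, among probes of other genes above background on the same arrays. For Uhrf1, out of 127 such probes, they were Myh9 (127.4, 43.2 and 36.0, distance 0.31), a non-muscle myosin, and Oosp1 (94.0, 30.5 and 28.9, distance 0.35), which encodes a protein secreted by the oocyte. For Dnmt1, out of 845, they were Degs1 (distance 0.043) and Tdpoz1 (0.065), and for the Dnmt3l probe ILMN_3112268, out of 844, Cstf1 (0.022) and Orc6 (0.029). For the other Dnmt3l probe they were Ulk4 (0.057) and Gtf2f2 (0.092), and for Dnmt3b Pigf (0.043) and Ube2o (0.053). Such distances over 3 arrays describe shape and level together, and many dim probes share the pattern of the 4 dim member probes. The control signals of these 4 span the range from 10.5 to 23.1 given beside Dnmt3l.

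The other genes of the pathway, from 7 lists, were mostly below background as well. Of 96 such genes on the array 10 (10.4%) were above background, against 5.72% of all 16593 genes, and of these 10, 4 were called lower and none higher, against 44.5% lower and 8.22% higher of the 949 genes above background. Their median log2 difference was -0.12, against -0.40 over the 949 genes, and in both the limits set the values of genes dim on the NSN arrays.

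The 1 gene of the 10 that was above background on all 3 arrays was Ctcfl, which encodes BORIS, a germ line relative of the insulator protein CTCF. Its signal was 375.9 in the control, 80.9 on NSN-a and 76.2 on NSN-b, a 4.79-fold decrease on the deposited scale (limma log2 difference of -2.26, adjusted p = 5.99e-05, standard error 0.056). The log2 difference was -0.02 after normexp and quantile. It ranked 4, 5 and 4 on the 3 arrays, so it was among the brightest probes of both groups. Ctcf itself gave 9.88, 2.27 and 0.00673 and was not called, as its control signal lies too near the NSN limits for a lower call. With limits at a detection p value of 0.05 it was called lower (log2 difference of -1.60), and after normexp and quantile it was not (-0.35).

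In the NuRD complex, which MBD3 joins, Cdk2ap1, a subunit of the complex, gave 125.9 in the control, 2.27 on NSN-a and 1.96 on NSN-b. The control signal was far from both 2-cell NSN signals, and Cdk2ap1 was at least 14.9-fold lower, and 4.10-fold lower after normexp and quantile. Mta2 (7.19 in the control) and Mta3 (6.68), subunits of the same complex, were above background in the control alone. Neither could be called lower, as the NSN limits lie above their control signals. A further 7 NuRD genes were below background. Of 10 genes on the array for repression around TRIM28, among them Setdb1 and Cbx5, and of 10 for maintenance and access to chromatin, among them Pcna and Hells, none was above background.

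Of 16 genes of demethylation and base excision repair, Dppa3 (8.50, 0.133 and -1.34), a maternal factor that protects methylation from oxidation, and Ung (6.55, 1.51 and 0.0907), a uracil glycosylase, were above background in the control. Neither was called, as the 2-cell NSN limits lie close to or above their control signals. Of 12 genes of methyl donor supply, Adk, adenosine kinase, was above background (24.2, -1.38 and -1.47) and at least 2.87-fold lower, at 1 of its 2 probes. Of 27 imprinted genes, whose expression depends on methylation set in the germ line, Igf2r (15.2, 1.74 and -0.490) was at least 1.80-fold lower. This call was lost after normexp and quantile. Cdkn1c (7.95, 0.466 and -3.33) was not called, as the NSN limits lie above its control signal, and the other 25 were below background. Igf2r and Mta3 were above background at 1 of 2 probes each, and Ung at 1 of 4.

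**Figure D4:**
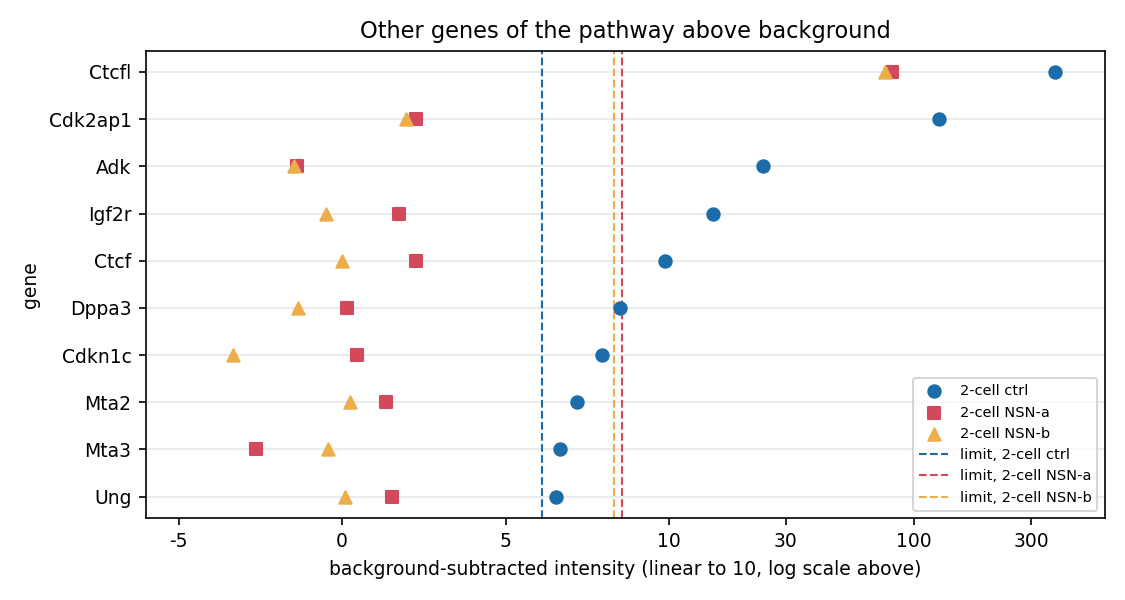
Background-subtracted intensity (x axis, linear to 10 and logarithmic above) of the 10 other pathway genes above background (y axis) on the 3 arrays, with dashed lines at the limits. Both 2-cell NSN signals lie above their limits for Ctcfl, and for the other 9 genes both lie below.

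Markers of oocytes and 2-cell embryos, of which Dppa3 is also in a list above, were measured beside the members. Of 10 on the array 8 were above background in the control, Zscan4c and Oog1 were not, and 6 of the 8 were called lower on the deposited scale (44.5% of the 949 genes above background were), among them Bmp15 (101.9, 5.49 and 4.61), a growth factor of the oocyte. After normexp and quantile 3 of the 8 were called lower, Bmp15, Gdf9 and Tcstv3. Tcstv1 lost its call there (log2 difference of -0.52). Ooep (24.1, 11.1 and 8.99) and Nlrp5, subunits of the subcortical maternal complex, turned to log2 differences of 0.33 and 0.33 and were not called. Nlrp5 was above background at 1 of its 3 probes. The summed signal of the 10 markers on the array was 239.7 in the control, 29.4 on NSN-a and 28.1 on NSN-b. None of 7 markers of cumulus and granulosa cells was above background, with sums of 5.92, 7.63 and 1.88, and none of 5 sperm markers was, with sums of 2.08, -2.25 and 6.30. Whether a general loss of oocyte and 2-cell transcripts happened, and any part of it in the lower signals of the members, was not tested.

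**Figure D5:**
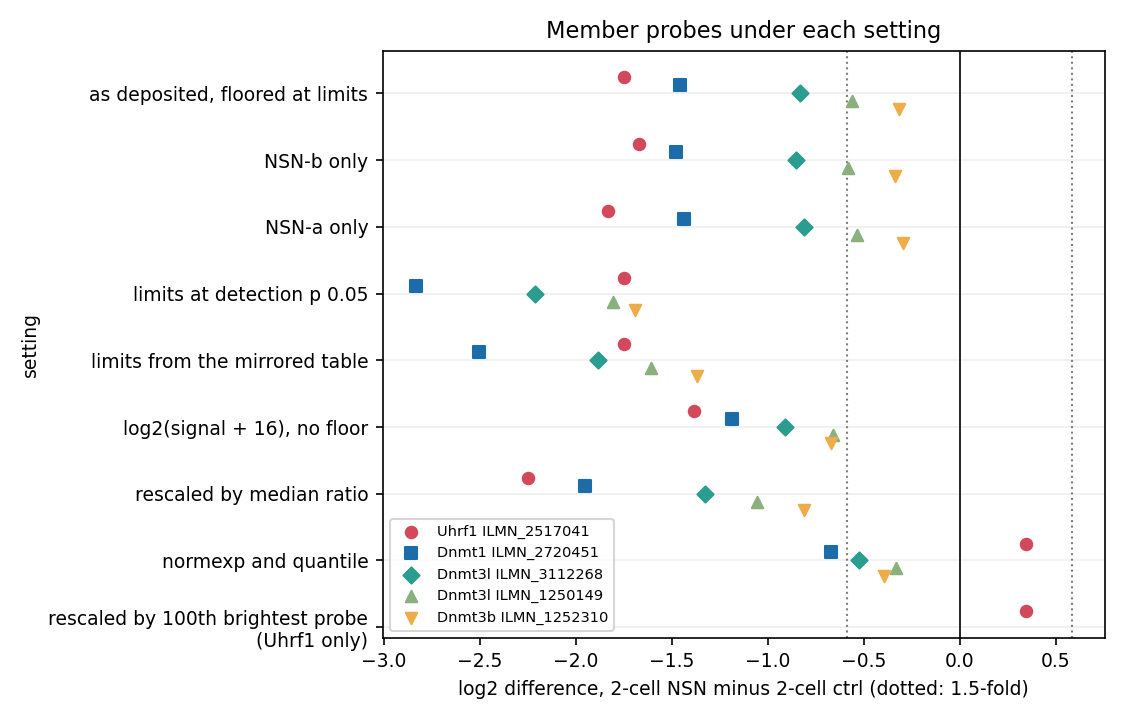
Log2 difference, 2-cell NSN minus 2-cell ctrl (x axis), of the 5 member probes above background under each setting of processing (y axis), with dotted lines at 1.5-fold; in settings with a floor the values of Dnmt1, Dnmt3l and Dnmt3b are bounds. Uhrf1 crosses to 0.34 in the last 2 settings, and Dnmt1 stays beyond the left dotted line in each setting shown for it.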

How the data were processed

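RNA of 1 sample of 2-cell ctrl and 2 of 2-cell NSN embryos was amplified in 2 rounds and hybridised to Illumina BeadChips. The deposited values are intensities on a linear scale, from which the authors had subtracted background and which they normalized by a rank-invariant method. The submitters' processing notes name BeadStudio 3. The reference array of that normalization is not known, and the median signals were 0.0916, 0.0443 and 0.0195. A second table was left out, as its 3 value columns carry no sample's name. To find the detection limits, 1188 rows of a supplementary table of signals and detection p values were compared with the deposited signals, and 896 equalled exactly 1 probe within 0.002%. None matched NSN-b, whose limit is an assumption.

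Of 25697 probes 23978 have 1 symbol, 0 several and 1719 none here. A gene of a list is represented by its brightest probe on average. The number of arrays limits the precision. The fit used limma 3.58.1 (R 4.3.3) with a trend on intensity and 1 residual degree of freedom, and counting used Python 3.11.15. Both were tested on simulated data with changes well over 1.5-fold. For the counts these were put only in probes brighter in the control than Dnmt1, and for limma the control had the spread of the NSN arrays. The simulations therefore do not cover dim probes near the threshold, or a control that varies otherwise. Named were every member probe, the genes of each list above background (at most 6 by mean signal) and the 2 nearest probes of each member probe above background. The members, lists and rules were chosen with earlier results of these data known.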

Additional observations from a re-analysis of the deposited data

How the results depend on the processing

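Member probes called lower numbered 3 on the deposited scale, 5 with limits at a detection p value of 0.05, with limits set by mirroring the signals under each median, with log2(signal + 16) or after rescaling by the median ratio, and 1 (Dnmt1) after normexp and quantile. Without either 2-cell NSN array the count was 3 to 3. For Dnmt1 and Dnmt3l this only exchanged 1 NSN limit for the other, as their NSN signals were below both. It is no check of how far the NSN arrays agree for these genes. At a fold of 2 the count was 2, without Dnmt3l. No member probe was called higher in these settings. The log2 difference of Uhrf1 turned to 0.34 after normexp and quantile, in limma too, and to 0.34 with the 100th brightest probe as the reference. After rescaling by the median ratio it was -2.25. Lower calls of pathway genes moved with those of the whole array. They numbered 4 on the deposited scale, 10 with either of those limits, 8 with log2(signal + 16) and 2 after normexp and quantile. Rbbp7, a histone-binding subunit of NuRD (signals of 2.81 in the control and 5.79 on NSN-a), was the 1 gene called higher, under both of these changed limits. limma gave 31 probes lower and 59 higher of 136, 72 lower and 49 higher of 571 with the filter at a detection p value of 0.05, 633 lower and 325 higher of 1104 floored probes, whose floored values vary little by construction, 8 lower and 87 higher of 136 after normexp and quantile, and 36 lower and 28 higher of 136 after rescaling. The number of probes tested differed between some of these settings, and the cause of the shifts was not tested. No paired analysis was possible because the control is a single array. Signal over background is a limit, as 8 of 13 member probes have no fold in either direction.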
